A study of Mus musculus with 12 samples.

Results

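The data described here are the liver levels of the cytochrome P450 genes of families 1 to 4. They were taken as every row of the deposited gene table whose symbol is Cyp, a family number from 1 to 4, a subfamily letter and a gene number. The rule found 48 of 11791 genes and used no measured value. In the GENCODE vM21 annotation of the mouse genome build GRCm38, 75 protein-coding genes have such a symbol, and the other 27 were not analysed here. Family 2 contributed 29 genes, family 4 contributed 12, family 3 contributed 5 and family 1 contributed 2. Rows with a suffix letter or a pseudogene suffix (Cyp4a12a, Cyp4a12b, Cyp2d37-ps and Cyp2d41-ps) fell outside the rule.

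Liver RNA of male C57BL/6-labelled mice aged 10 weeks was sequenced after 3 weeks on a methionine- and choline-deficient diet (MCD), which produces fatty liver inflammation in mice. The 12 libraries form 3 groups of 4 pools, and the protocols describe a pool as RNA of 2 animals. Every animal carried Lyzs-Cre, a recombinase driven in myeloid cells by the lysozyme 2 locus. The control group carried nothing else, the KO group also lacked p38γ and p38δ (the stress kinases encoded by Mapk12 and Mapk13) in the cells where the recombinase is active, and the anti-Ly6G group received an antibody against Ly6G, a neutrophil surface protein, which the titles name GR1. No pool on a normal diet and no pool given a control antibody is among the samples. The number of males that the labels give for each genotype, 12, is above the 8 animals that such pools hold. The spread behind each p-value is that between pools. A separate label names the origin of the mitochondria, in a protocol on conplastic mice, which combine the nuclear genome of 1 strain with the mitochondrial DNA of another. Its value is C57 for all of control and for KO 1 and KO 2. For the antibody group, KO 3 and KO 4 it is NZB, so in anti-Ly6G against control the antibody and the NZB label cannot be told apart.

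P450 enzymes are heme proteins of the endoplasmic reticulum that insert an oxygen atom into their substrates with electrons passed on by cytochrome P450 reductase, the product of Por. Families 1 to 3 oxidise drugs, plant compounds, steroids and unsaturated fatty acids, and family 4 mainly hydroxylates fatty acids and leukotrienes at the end of the chain. In liver each group answers to its own sensor: the aryl hydrocarbon receptor (AhR) drives Cyp1a genes, the constitutive androstane receptor (CAR, Nr1i3) Cyp2b10, the pregnane X receptor (PXR, Nr1i2) Cyp3a11, and PPARα (Ppara) Cyp4a genes. Many members arose by tandem duplication and stand beside near-identical copies, which is where reads can be shared.

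The sequences of the copies that carry the largest changes show how alike they are. Of the 48 members, 12 had fewer than 50% of their annotated 25-base words found in no other annotated gene, and 14 had at least 90%. The coding sequences of Cyp2a4 and Cyp2a5 were 98.5% identical over 1482 bases, those of Cyp3a25 and Cyp3a59 97.5% over 1509, those of Cyp4a10 and Cyp4a32 97.2% over 1527, those of Cyp2c37 and Cyp2c50 96.1% over 1470, and those of Cyp2c39 and Cyp2c38 94.2% over 1470. The first 90 coding bases in GENCODE vM21 are printed for 3 of these pairs, with the letters that differ within a pair in capitals. They show 8 differences between Cyp2c39 and Cyp2c38, 2 between Cyp2c37 and Cyp2c50 and 1 between Cyp3a25 and Cyp3a59.
Cyp2c39 coding start: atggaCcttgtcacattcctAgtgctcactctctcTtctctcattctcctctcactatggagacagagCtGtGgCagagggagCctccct
Cyp2c38 coding start: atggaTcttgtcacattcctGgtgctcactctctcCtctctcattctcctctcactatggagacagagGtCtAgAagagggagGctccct
Cyp2c37 coding start: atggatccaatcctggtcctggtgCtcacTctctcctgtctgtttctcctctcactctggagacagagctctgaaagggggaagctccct
Cyp2c50 coding start: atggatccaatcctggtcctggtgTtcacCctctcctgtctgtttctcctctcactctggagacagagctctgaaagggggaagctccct
Cyp3a25 coding start: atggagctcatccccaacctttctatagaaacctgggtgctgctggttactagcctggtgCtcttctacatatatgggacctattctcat
Cyp3a59 coding start: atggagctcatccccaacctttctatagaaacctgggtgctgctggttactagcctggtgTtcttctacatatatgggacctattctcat

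Cyp2a4 and Cyp2a5 are alike up to their promoters. RefSeq's windows from 250 bases before to 50 bases after the start of transcription (GRCm38.p6, plus strand) lie at chr7:26306942-26307241 for Cyp2a4 and chr7:26835089-26835388 for Cyp2a5, and 294 of 301 aligned positions (97.7%) were identical. Capitals mark the letters that differ or have no partner.
Cyp2a4 promoter: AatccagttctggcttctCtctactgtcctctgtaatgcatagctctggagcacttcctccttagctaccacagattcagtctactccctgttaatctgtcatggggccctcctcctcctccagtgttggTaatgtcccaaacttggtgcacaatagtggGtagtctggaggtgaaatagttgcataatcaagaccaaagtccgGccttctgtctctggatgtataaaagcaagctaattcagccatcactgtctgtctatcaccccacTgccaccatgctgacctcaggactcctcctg
Cyp2a5 promoter: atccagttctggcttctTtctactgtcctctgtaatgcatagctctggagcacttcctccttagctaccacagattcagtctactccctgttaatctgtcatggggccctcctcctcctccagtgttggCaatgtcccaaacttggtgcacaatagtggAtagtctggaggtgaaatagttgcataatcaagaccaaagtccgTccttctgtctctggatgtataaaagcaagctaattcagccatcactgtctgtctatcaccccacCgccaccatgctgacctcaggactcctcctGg

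A RefSeq promoter window lay within 1000 bases of the GENCODE start for 38 of the 48 members. Both strands of these windows were searched for TATAAA (the TATA box), AGGTCA (the half-site of nuclear receptors such as CAR, PXR and PPARα), GCGTG (the core of the AhR element) and CAAAGTCCA (an HNF4 element), and no match of 1 motif overlapped a match of another. TATAAA was found in 18 of the 38 windows (47.4%), against 14.2% of the 27025 promoters in the table. AGGTCA was found in 11 (28.9%, against 16% of all promoters), GCGTG in 7 (18.4%, against 32.5%) and CAAAGTCCA in 5 (13.2%, against 0.477%). The windows of Cyp2a4 and Cyp2a5 both hold TATAAA, which begins at -28 and -29 from the start, and the reverse complement of AGGTCA, which begins at 31 and 30. In both genes this last match lies within the coding sequence. Cyp2c39 held TATAAA at -3 and none of the other motifs, and its window was 72.6% identical to that of Cyp2c38 over 329 aligned positions. Cyp2b10 held GCGTG on both strands, at -101 and at -9, and no AGGTCA. Sequence further than 250 bases before the start was not searched for any gene. The HNF4 element was held by Cyp2c40, Cyp2c67, Cyp2c68, Cyp2c70 and Cyp3a11. Of these, Cyp2c40, Cyp2c67 and Cyp2c68 are close copies, with coding sequences 92.2% to 97.2% identical. Copies count as separate members in all these motif shares.

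The deposited signal is reads per M (mega) reads of a TMM-scaled library, written here as RPM, and rests on 13.1 to 22.3 M reads per pool. A signal of 3 reads was 0.125 to 0.242 RPM, depending on the pool, and no member had fewer than 10 reads in any pool. Every member passed the filter on low values, a mean of at least 1 RPM in a group. Tests are limma-trend fits over all 11791 genes on log2(signal + 0.5), in which a log2 fold change understates the change of low genes, and "called" means an adjusted p (Benjamini-Hochberg) under 0.05. Mapk12 averaged 2.17 ± 0.397 RPM in control and 2.30 ± 0.694 in KO pools (SD, n = 4), a difference that was not called (adjusted p = 0.922, limma), and Mapk13 was not analysed here. These are whole-liver levels, and cells without the recombinase carry the intact gene. The summed signal of 10 macrophage markers ran from 334 to 667 in control pools, 480.2 to 787 in the KO pools and 163 to 226 in anti-Ly6G pools, that of 7 hepatocyte markers from 101750 to 119170, 93089 to 118950 and 94313 to 133540, and that of the 4 measured of 8 neutrophil markers from 12.5 to 21.4, 17.4 to 20.9 and 6.30 to 10.7. The defining hepatocyte markers, Alb among them, were present in every pool.

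The P450 transcripts of MCD-fed liver were dominated by a few genes. Per kb of transcript, Cyp2e1, which oxidises ethanol, ketones and small solvents, led in all 3 groups with 4910 RPM per kb in control, followed by Cyp4a14, a fatty acid ω-hydroxylase, with 4485. Together they made up 62.4% of the summed level per kb of all members in control pools, 62.2% in the KO pools and 62.4% in anti-Ly6G pools. Cyp3a11, the main drug- and steroid-oxidising enzyme of family 3 in mouse liver, followed in control with 1072 RPM per kb, ahead of Cyp4a10 (779) and Cyp2d26 (548), and the lowest were Cyp2b10 (0.493) and Cyp1b1 (0.436). The top 5 kept ranks 1 to 5 in every group, with Cyp3a11 and Cyp4a10 changing places in KO pools. Cyp2c39 moved from rank 42 in control and KO to rank 10 in anti-Ly6G pools, and Cyp2a4 from rank 31 in control to rank 36 in KO and rank 14 in anti-Ly6G pools.

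**Figure D1:**
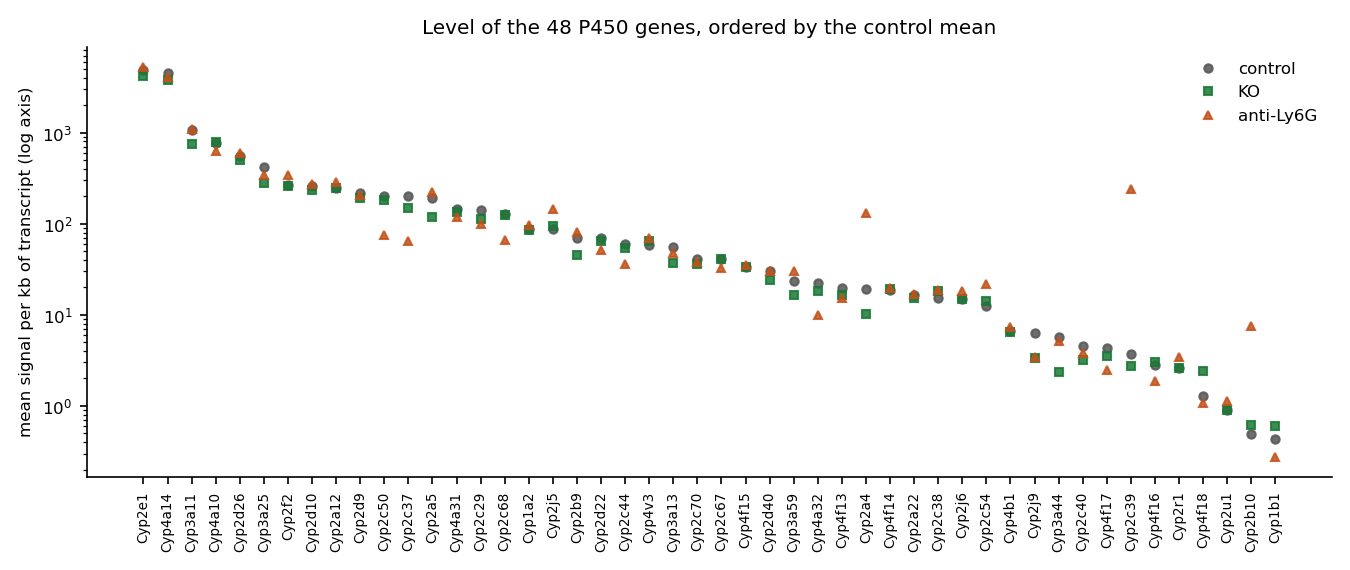
Mean signal per kb of transcript of the 48 P450 genes in the control (circles), KO (squares) and anti-Ly6G (triangles) pools on a log axis, ordered by the control mean, with 4 pools behind each point. Cyp2e1, Cyp4a14, Cyp2d26, Cyp2u1 and Cyp1b1 have the same rank in all 3 groups. The triangles of Cyp2c39, Cyp2a4 and Cyp2b10 lie far above and those of Cyp2c37 and Cyp2c50 below the other symbols.

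The 5 most abundant members were called in neither comparison with control. Cyp4a14 measured 10815, 11489, 12279 and 10197 RPM in the control pools, 9214, 8194, 9899.8 and 10165 in the KO pools and 10624, 8936, 10031 and 10997 in the anti-Ly6G pools. Cyp2e1 measured 9092, 9884, 8549 and 8479 RPM in control pools, 9008, 8518, 5886 and 7369.8 in the KO pools and 8875, 10535, 8051 and 11509 in anti-Ly6G pools. The 2 lowest values of Cyp2e1 were those of KO pools 3 and 4. Cyp4a10, the second fatty acid ω-hydroxylase, measured 2326, 1202, 1831 and 1209.8 RPM in control pools, 1755, 1347, 1670.3 and 1809 in the KO pools and 1413, 1276, 1470.4 and 1198 in anti-Ly6G pools. Its control pools fell into a high and a low pair, with the other groups between or near them. Cyp2d26, of the drug-oxidising 2d subfamily, measured 946, 969, 927 and 881 RPM in control pools, 953, 956, 767 and 733 in the KO pools and 856, 967, 923 and 1279.5 in anti-Ly6G pools. The groups overlapped for Cyp2e1, Cyp4a10 and Cyp2d26, while for Cyp4a14 the highest KO pool (10165) lay just under the lowest control pool (10197). The spread between pools, as the coefficient of variation over 4 pools, had a median over members of 14.6% in control pools, 15.1% in the KO pools and 17.8% in anti-Ly6G pools, and ranged from 2.71% (Cyp4f13 in KO) to 116% (Cyp3a44 in anti-Ly6G).

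The comparison of anti-Ly6G with control asks how the antibody-treated liver differs under the same diet. In it, 6 of the 48 members rose and 12 fell, together 37.5% of the members, against 30.4% of all genes tested (15.1% higher and 15.3% lower). Over all genes that was 1775 higher and 1805 lower, and with plain library totals in place of the TMM scaling 1267 higher and 1977 lower, with 6 members higher and 14 lower. In 6 members all antibody pools lay above all control pools and in 8 below (29.2%), against 27.3% of all genes. The median log2 difference over the members was 0.02, against -0.0022 over all genes. Cyp2c39 rose by 5.95, Cyp2b10 by 3.27 and Cyp2a4 by 2.66 on the log2 scale, and the other 3 rises were of 0.28 to 0.71. The falls ran from -1.61 to -0.34 and were led by Cyp2c37 (-1.61), Cyp2c50 (-1.52) and Cyp4a32 (-1.15). The 3 large rises and these 3 falls, 6 members (12.5% of the 48), were called and at least 2-fold apart, against 3.01% of all genes. In bulk liver, fewer cells of a type and less RNA per cell cannot be told apart.

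**Figure D2:**
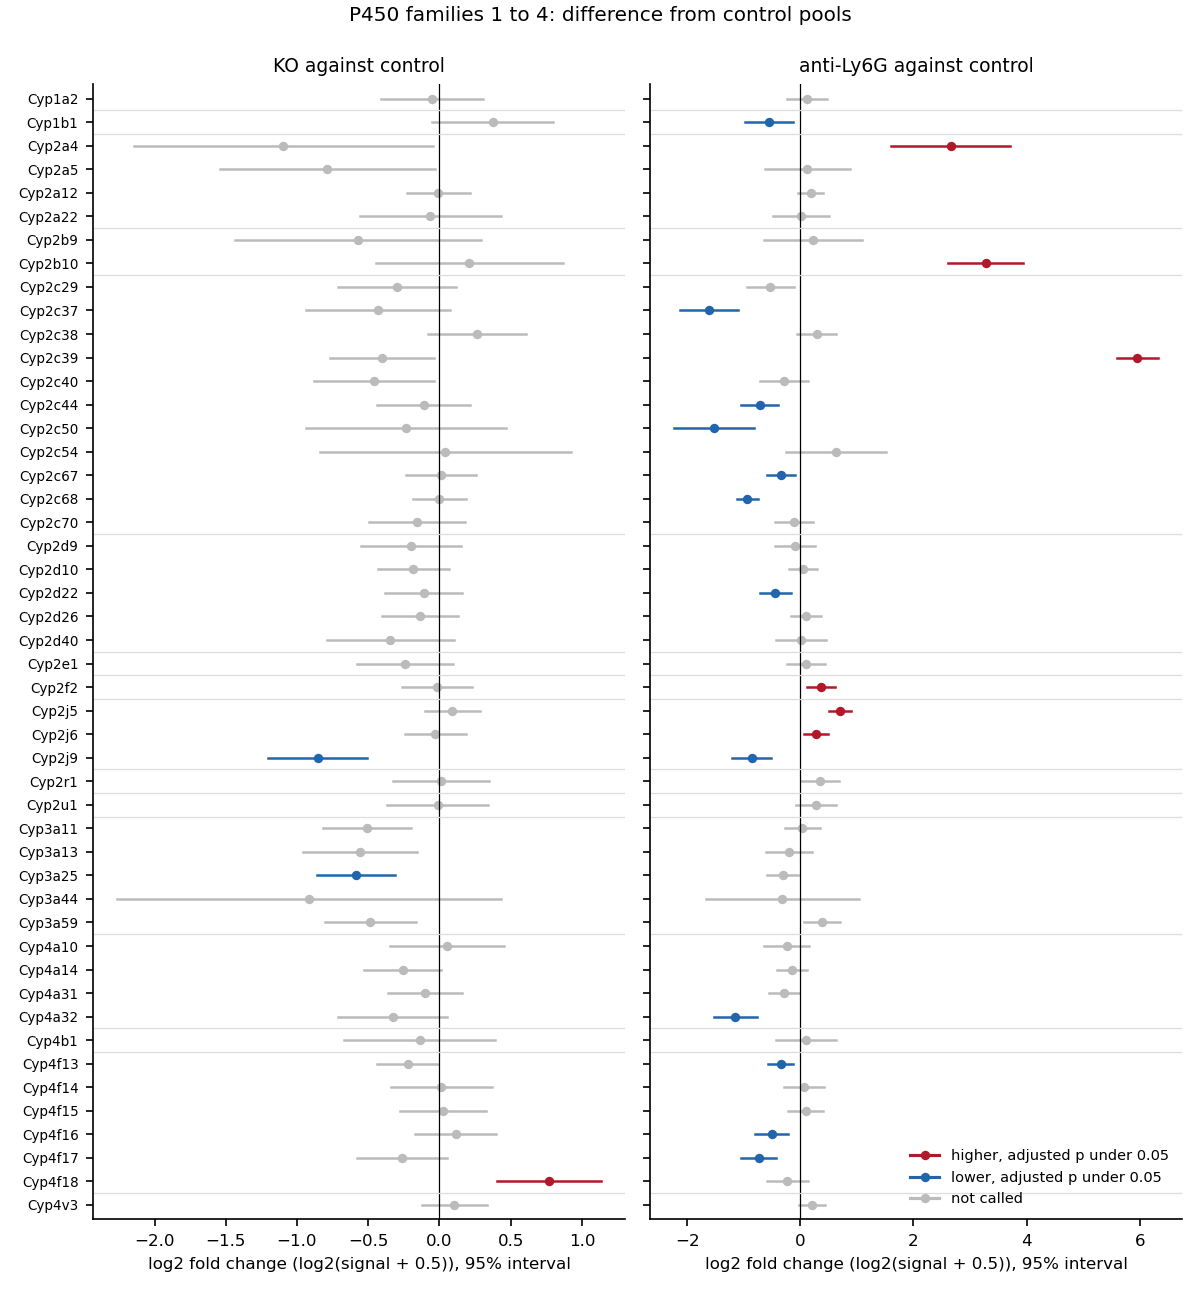
Log2 fold change (dots) with its 95% interval (lines) of the 48 P450 genes in KO against control and anti-Ly6G against control, by subfamily, with red for higher and blue for lower at an adjusted p under 0.05 and grey for not called; the x axes differ in scale. In KO pools 3 members were called, Cyp4f18 higher and Cyp2j9 and Cyp3a25 lower, and in anti-Ly6G pools 18.

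Cyp2c39 (ENSMUSG00000025003, chr19:39510862-39568529), known in mouse as a retinoic acid hydroxylase, changed most. It measured 8.13, 4.51, 6.53 and 7.80 RPM in the control pools, 6.03, 3.53, 5.24 and 4.93 in the KO pools and 412, 419, 507 and 422 in the anti-Ly6G pools. The antibody pools lay far above all others without overlap, and KO pools 3 and 4, which share the NZB label with them, lay within the range of the control pools. The log2 difference from control was 5.95 ± 0.17 (SE, adjusted p = 3.16e-11, limma), with means of 440.1 ± 45.0 and 6.74 ± 1.64 RPM (SD, n = 4). Cyp2c38, its closest copy, shares 27.4% of the 25-base words of Cyp2c39 and measured 49.98, 37.4, 51.7 and 35.4 RPM in control pools, 54.4, 51.1, 52.8 and 48.8 in the KO pools and 42.2, 60.4, 70.5 and 43.2 in anti-Ly6G pools. Its groups overlapped and it was not called (0.29 ± 0.16, adjusted p = 0.185, limma). The summed signal of Cyp2c38 and Cyp2c39 was 50.4 ± 9.03 RPM in control pools, 56.7 ± 3.11 in the KO pools and 494 ± 56.7 in anti-Ly6G pools, so the sum of the pair rose as well.

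Cyp2b10 (ENSMUSG00000030483, chr7:25897620-25926624) is the classic CAR-induced gene of mouse liver. It measured 0.819, 0.501, 0.950 and 1.32 RPM in control pools, 0.868, 0.686, 1.17 and 1.82 in the KO pools and 19.8, 14.3, 6.34 and 14.4 in anti-Ly6G pools. Every antibody pool lay above every other pool. The log2 difference from control was 3.27 ± 0.31 (adjusted p = 1.16e-05, limma). Of its 25-base words 74.5% are unique and 16.4% are shared with Cyp2b13, which was not analysed here. Cyp2b9, its neighbour and a gene that is higher in female than in male mouse liver, ran from 58.3 to 199.99 RPM in control and from 69.7 to 206 in anti-Ly6G pools and was not called.

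Cyp2a4 (ENSMUSG00000074254, chr7:26307169-26315088), a steroid hydroxylase that is higher in female liver, measured 33.3, 25.4, 51.3 and 22.1 RPM in control pools, 13.995, 5.54, 37.2 and 14.4 in the KO pools and 101, 173, 414 and 223 in anti-Ly6G pools. The antibody pools did not overlap the others but spread from 101 to 414 RPM. The log2 difference was 2.66 ± 0.49 (adjusted p = 0.00163, limma). Cyp2a5, the coumarin hydroxylase whose promoter and coding sequence are nearly those of Cyp2a4, measured 336, 347, 323 and 545 RPM in control and 274, 531, 269 and 744 in anti-Ly6G pools. Its groups overlapped and the difference was not called (0.13 ± 0.35, adjusted p = 0.809, limma). With 63.7% of the 25-base words of Cyp2a4 found in Cyp2a5, reads may be split between them in a way the sources used here do not state. The summed signal of both was 369 to 568 RPM in control pools, 153 to 376 in the KO pools and 375 to 968 in anti-Ly6G pools, ranges that overlap.

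**Figure D3:**
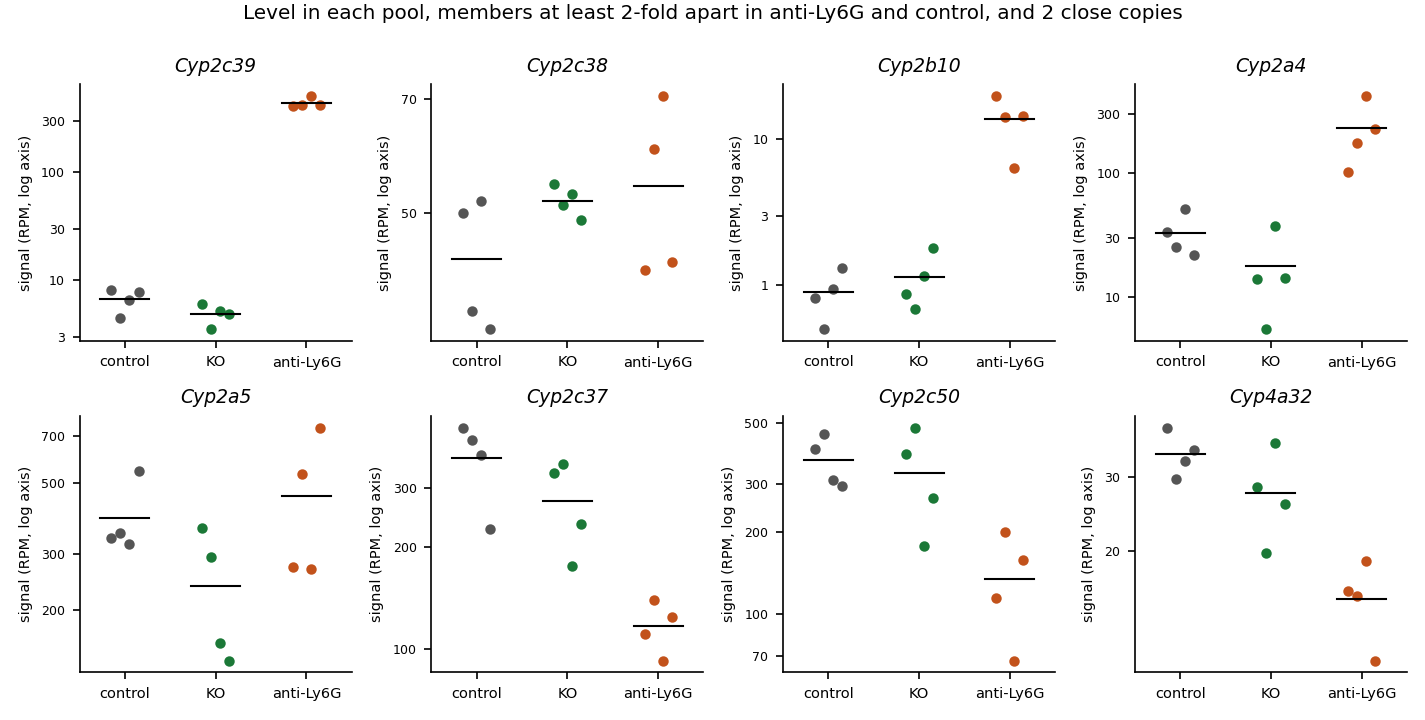
Signal in each pool (dots, RPM, log axes) with the group mean (line) for the 6 members called and at least 2-fold apart between anti-Ly6G and control, and for Cyp2c38 and Cyp2a5, the closest copies of Cyp2c39 and Cyp2a4. For Cyp2c39, Cyp2b10 and Cyp2a4 the 4 anti-Ly6G pools lie above all others, for Cyp2c37 and Cyp4a32 they lie below all others and for Cyp2c50 below all control pools, while those of Cyp2c38 and Cyp2a5 overlap control.

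The falls were led by arachidonic acid-oxidising genes of the Cyp2c cluster. Cyp2c37 measured 451, 414, 375 and 226 RPM in control pools, 331, 354, 176 and 234 in the KO pools and 111, 139.7, 92.6 and 125 in anti-Ly6G pools, a log2 difference from control of -1.61 ± 0.23 (adjusted p = 3.51e-04, limma). Cyp2c50, its near copy, measured 403, 455, 309 and 295 RPM in control pools, 384, 481, 177 and 266 in the KO pools and 115, 199, 67.4 and 157 in anti-Ly6G pools (-1.52 ± 0.33, adjusted p = 0.00385, limma). For both genes the antibody pools lay below every control pool. A further copy, Cyp2c54, went from 22.3 ± 5.06 RPM in control to 38.9 ± 21.7 in anti-Ly6G pools and was not called. The summed signal of the 3 genes was 543 to 892 RPM in control pools, 365 to 878 in the KO pools and 176 to 405 in anti-Ly6G pools, without overlap between antibody and control.

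Cyp2c68, of the same cluster, gave the tightest fall. It measured 234, 207, 249 and 183 RPM in control pools, 224, 219.5, 215 and 208 in the KO pools and 113, 119, 114 and 106 in anti-Ly6G pools (-0.94 ± 0.09, adjusted p = 1.10e-05, limma). Only 30.1% of its 25-base words are unique, and 60.7% are shared with Cyp2c40. Together, Cyp2c40, Cyp2c67 and Cyp2c68 gave 263 to 329 RPM in control pools, 278 to 303 in the KO pools and 159.9 to 186 in anti-Ly6G pools, again without overlap between antibody and control. Cyp2c44, an arachidonic acid epoxygenase with 99.9% unique 25-base words that stands apart from the cluster, measured 139, 97.1, 105 and 113 RPM in control pools, 114, 114, 100.4 and 89.8 in the KO pools and 48.7, 78.2, 80.8 and 70.1 in anti-Ly6G pools (-0.72 ± 0.15, adjusted p = 0.00353, limma). All its antibody pools lay below all control and KO pools. Cyp2c67 fell by 0.34 on the log2 scale (adjusted p = 0.0392, limma), and this call was lost without anti-Ly6G 1 or 4, control 1, 3 or 4, or KO 1, at adjusted p up to 0.102 (without control 1, limma).

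**Figure D4:**
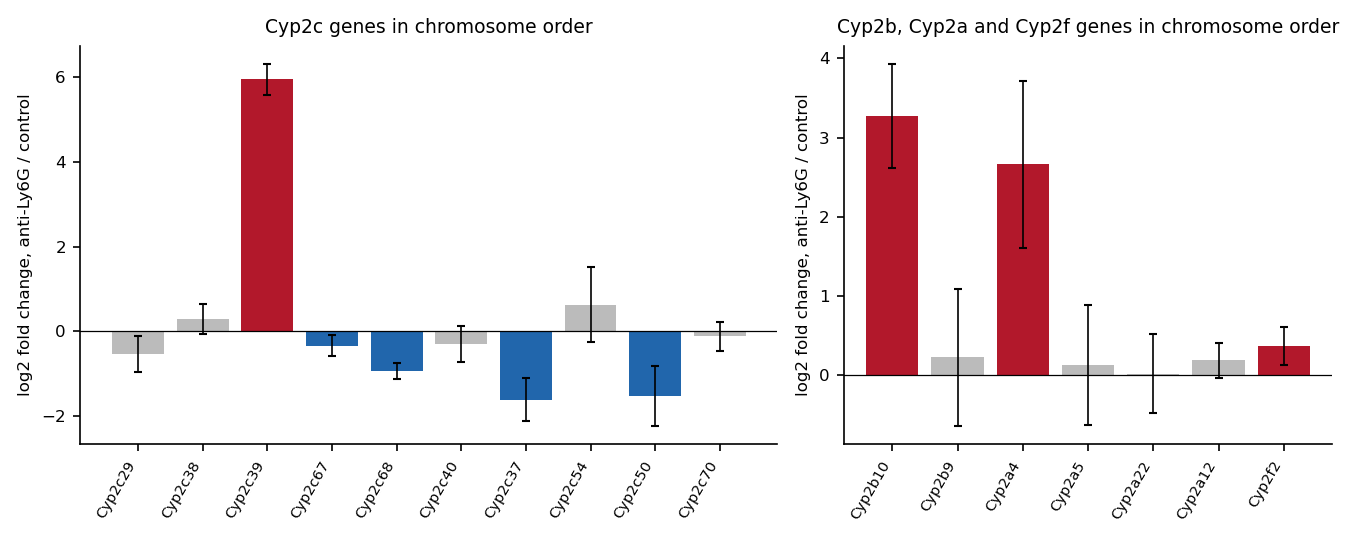
Log2 fold change of anti-Ly6G against control (bars, with 95% intervals) for 10 Cyp2c genes of chromosome 19 and 7 Cyp2b, Cyp2a and Cyp2f genes of chromosome 7, in chromosome order, with red for higher, blue for lower and grey for not called. Cyp2c39 at 5.95 stands between Cyp2c38, which was not called, and Cyp2c67 and Cyp2c68, which fell; Cyp2b10 and Cyp2a4 rose while Cyp2b9 between them and Cyp2a5 beside them were not called.

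Neighbours in a gene cluster were not all called alike, where 15.1% of all genes were called higher and 15.3% lower. The 10 members between chr19:39269405 and 40187333 held 1 gene that rose, 4 that fell and 5 that were not called, and the plot of fold change in chromosome order shows the rise of Cyp2c39 beside falls. The 7 members between chr7:25897620 and 27133660 held 3 that rose and 4 not called, and all 7 log2 differences lay above 0 (0.02 to 3.27). The 3 Cyp2j genes of chromosome 4 were all called, in different directions. Of the 5 Cyp2d genes on chromosome 15, Cyp2d22 alone was called, and none of the 4 Cyp3a genes that stand together on chromosome 5 was.

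The Cyp2j genes encode arachidonic acid epoxygenases and related hydroxylases, and all 3 have more than 90% unique 25-base words. Cyp2j5 measured 208, 192, 217 and 205 RPM in control pools, 236, 250.2, 184 and 212 in the KO pools and 316, 362, 349 and 319.8 in anti-Ly6G pools, a rise of 0.71 ± 0.09 (adjusted p = 1.41e-04, limma). Cyp2j9 (ENSMUSG00000015224, chr4:96568429-96591578) measured 13.4, 13.4, 14.4 and 10.4 RPM in control pools, 6.90, 5.70, 8.49 and 6.55 in the KO pools and 6.32, 5.27, 9.35 and 6.95 in anti-Ly6G pools. Both other groups lay below every control pool, and the fall in the antibody pools was 0.86 on the log2 scale (SE 0.16, adjusted p = 0.00191, limma). Cyp2j6 rose by 0.28 ± 0.10 (adjusted p = 0.0455, limma), from 54.3 ± 1.77 to 66.6 ± 8.63 RPM, and lost its call without anti-Ly6G 1, 2 or 4, any control pool or KO 4, at adjusted p up to 0.137 (without anti-Ly6G 2, limma).

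In family 4 no member rose and 4 of 12 fell (33.3% called), against 30.4% of all genes (15.1% higher and 15.3% lower). Cyp4a32, a near copy of Cyp4a10, measured 39.5, 29.7, 32.8 and 34.8 RPM in control pools, 28.4, 19.8, 36.2 and 25.9 in the KO pools and 16.1, 15.6, 18.9 and 10.9 in anti-Ly6G pools (-1.15 ± 0.18, adjusted p = 5.32e-04, limma). All antibody pools lay below all other pools. It shares 56.3% of its 25-base words with Cyp4a10 (1642 ± 543 RPM in control), and the summed signal of Cyp4a10, Cyp4a31 and Cyp4a32 overlapped between antibody (1522 to 1832) and control (1608 to 2682). Of the Cyp4f genes, which hydroxylate leukotrienes and long-chain fatty acids, Cyp4f17 measured 14.6, 13.8, 12.9 and 9.25 RPM in control pools, 8.68, 9.39, 12.9 and 10.7 in the KO pools and 7.84, 6.23, 7.39 and 7.76 in anti-Ly6G pools (-0.74 ± 0.15, adjusted p = 0.00258, limma). Cyp4f16 measured 5.99, 6.71, 5.05 and 7.27 RPM in control pools, 5.62, 7.02, 7.49 and 7.03 in the KO pools and 4.68, 3.497, 4.24 and 4.53 in anti-Ly6G pools (-0.51 ± 0.13, adjusted p = 0.0114, limma). For both genes the antibody pools lay below all other pools. Cyp4f13 fell by 0.35 on the log2 scale (adjusted p = 0.0191, limma), a call lost without anti-Ly6G 2, control 1 or control 3 at adjusted p of 0.0508, 0.0552 and 0.0528 (limma). Cyp4f14 and Cyp4f15 were not called, at log2 differences of 0.06 and 0.09.

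The remaining calls were small. Cyp2d22, of the drug-oxidising 2d subfamily, measured 227, 181, 187 and 174 RPM in control pools, 201, 190.2, 159 and 162 in the KO pools and 123, 144, 124 and 179 in anti-Ly6G pools (-0.44 ± 0.13, adjusted p = 0.0183, limma). Antibody pool 4 lay within the control range, and the call was lost without control 1 (adjusted p = 0.0552) or anti-Ly6G 1 (adjusted p = 0.0556, limma). Cyp2f2, which oxidises naphthalene, rose by 0.37 ± 0.11 (adjusted p = 0.0254, limma), from 492 ± 48.7 to 636 ± 76.2 RPM, a call lost without anti-Ly6G 4, control 2 or control 3 at adjusted p of 0.0643, 0.0760 and 0.0588 (limma). It shares 11.5% of its 25-base words with the annotated gene Gm15883. Cyp1b1, which oxidises estrogens and polycyclic hydrocarbons and is known in liver mainly from cells other than hepatocytes, measured 2.14, 1.90, 2.26 and 2.64 RPM in control pools, 2.503, 4.22, 2.54 and 3.11 in the KO pools and 1.45, 1.17, 0.954 and 2.02 in anti-Ly6G pools (-0.55 ± 0.20, adjusted p = 0.0488, limma). Antibody pool 4 overlapped control, and the call was lost without anti-Ly6G 1, 2 or 3, any control pool, or KO 1, 3 or 4, at adjusted p up to 0.121 (without anti-Ly6G 3, limma). With a pseudocount of 1 the adjusted p was 0.0541 and with the replicate number as a block 0.0552 (limma). The summed signal of 7 stellate cell markers ran from 103 to 214 in control pools, 184 to 281 in the KO pools and 67.6 to 80.7 in anti-Ly6G pools, and the part of these cells and of the macrophages in the level of Cyp1b1 was not tested.

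With the mitochondria label as a covariate, a fit in which KO pools 3 and 4 alone carry the NZB label without the antibody, 9 of the 18 calls remained. Of the 48 members 5 were higher and 4 lower, and over all genes 517 and 456 (8.25%, against 30.4% without the covariate). The fit takes the label to act alike in KO and control livers, which was not tested. Cyp2c39 (5.83, adjusted p = 2.01e-07), Cyp2b10 (2.65, adjusted p = 0.0108), Cyp2j5 (1.01), Cyp2f2 (0.73) and Cyp2j6 (0.58) were higher, and Cyp4a32 (-1.51, adjusted p = 0.0116, limma), Cyp4f17 (-1.10), Cyp2j9 (-1.09) and Cyp2c68 (-0.87) lower. Cyp2a4 kept a log2 difference of 1.32 (adjusted p = 0.272), Cyp2c37 of -0.86 (adjusted p = 0.121) and Cyp2c50 of -0.54 (adjusted p = 0.497, limma) and were no longer called. Neither were Cyp4f16 (-0.70), Cyp2c44 (-0.45), Cyp2c67 (-0.44), Cyp1b1 (-0.37), Cyp4f13 (-0.30) and Cyp2d22 (-0.15), of which Cyp4f16 and Cyp2c67 differed by more than without the covariate (-0.51 and -0.34).

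The called members were also counted by the sensor or function they are known for, against 30.4% of all genes called. Of 7 measured CAR-responsive members, Cyp2b10 rose and Cyp2c37 and Cyp2c50 fell, and of 5 PXR-responsive Cyp3a members none was called. Of 4 PPARα-responsive Cyp4a members only Cyp4a32 was, with all 4 below 0 (-1.15 to -0.14), and of 11 arachidonic acid-oxidising members of the 2c and 2j subfamilies 3 rose and 4 fell. Of 5 members known as higher in female mouse liver 2 rose (Cyp2a4 and Cyp2b10), and of 3 known as higher in male liver and placed in 1 list (Cyp2d9, Cyp2d10 and Cyp2u1) none was called, at log2 differences of -0.09 to 0.28. Members unlikely to share reads were called too: 7 of the 14 with at least 90% unique 25-base words, 6 of the 22 between 50% and 90%, and 5 of the 12 under 50%.

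Genes that serve or steer the P450 enzymes were called about as often as all genes (30.4%) in the antibody pools. Of 17 genes for electron transfer, heme and epoxide hydrolysis, 3 rose and 3 fell (35.3%). Among them the heme synthesis gene Alad rose (0.93, adjusted p = 3.01e-04, limma), while the heme-degrading Hmox1 (-1.08, adjusted p = 0.00221) and Por (-0.45, adjusted p = 0.0454, limma) fell. Por averaged 648 ± 27.6 RPM in control pools, 493 ± 33.8 in the KO pools and 493 ± 161 in anti-Ly6G pools. Of 25 measured regulators 5 rose and 3 fell (32%). Nr1i3 (CAR) rose from 305 ± 12.4 to 486 ± 108 RPM (0.64, adjusted p = 0.00229), Ahr from 18.7 ± 4.23 to 29.9 ± 1.97 (0.68, adjusted p = 0.00157, limma) and Cebpa by 0.43, and Cux2, a factor that is higher in female liver, fell from 25.2 ± 8.95 to 8.16 ± 5.55 RPM (-1.74, adjusted p = 0.00430, limma). Only 30.3% of the 25-base words of Nr1i3 are unique, and 69.6% are shared with the annotated gene Tomm40l. Nr1i2 (PXR) and Ppara were not called, at log2 differences of 0.14 and -0.06.

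Other genes known to answer the same sensors were counted beside the members, against 15.1% of all genes higher and 15.3% lower. Of 21 measured genes that answer CAR or PXR, 5 rose, led by Sult1e1 (2.72) and Aldh1a7 (0.93), and 7 fell, led by Gstm1 (-0.89) and Abcc3 (-0.83). Of 7 measured AhR genes none rose and 2 fell, Nqo1 (-0.51) and Ugt1a6b (-0.34), a gene that shares exons with its neighbours in the Ugt1a locus. Of 23 measured PPARα genes 6 rose, among them Fgf21 (1.05), Fabp1 (0.61), Vnn1 (0.54) and Acot4 (0.48), and 1 fell, together 30.4%, the share of all genes. Of 14 genes of pericentral hepatocytes, the zone where Cyp2e1 and most drug-metabolising P450 genes are known to be highest, 5 rose, among them Lgr5 (0.81), Lect2 (0.61) and Aldh1a1 (0.48). Of 14 periportal genes 3 fell, Hal (-1.07), Cps1 (-0.79) and Gls2 (-0.53). The medians of these lists lay between -0.18 and 0.14. The lists hold no P450 gene. Cyp2e1 itself was not called (0.10), and a shift between the zones was not tested.

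The comparison of KO with control asks whether loss of p38γ and p38δ in myeloid cells changes the liver transcriptome under the same diet. It uses the same control pools as the antibody comparison, so the 2 are not independent. In KO pools 1 of 48 members rose and 2 fell (6.25%), against 1.12% of all genes (0.585% higher and 0.534% lower, that is 69 and 63, or 123 and 37 with plain library totals, which called the same number of members). A total of 35 members (72.9%) lay below 0, against 50.4% of all genes, and the median over the members was -0.14. None was called and at least 2-fold apart, against 0.0763% of all genes. In 1 member all KO pools lay above all control pools and in 4 below, which are 2.08% and 8.33% of the members, against 5.73% and 6.62% of all genes. At an unadjusted p under 0.05 there were 11 members (22.9%), against 18.9% of all genes.

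Cyp4f18 (ENSMUSG00000003484, chr8:71988482-72009626), known in mouse as the leukotriene B4 hydroxylase of neutrophils, measured 2.46, 1.95, 2.08 and 2.31 RPM in control pools, 4.44, 4.11, 4.04 and 3.78 in the KO pools and 2.78, 1.52, 1.34 and 1.78 in anti-Ly6G pools. All KO pools lay above all other pools. Of its 25-base words 7.51% are shared with the overlapping gene Zfp961. The rise over control was 0.77 ± 0.17 (adjusted p = 0.0471, limma), with means of 4.09 ± 0.274 and 2.20 ± 0.227 RPM. The 4 measured neutrophil markers summed to 17.4 to 20.9 in KO and 12.5 to 21.4 in control, and the 10 macrophage markers to 480.2 to 787 and 334 to 667; their part in the level of Cyp4f18 was not tested. The call was lost without any of the 4 KO pools, without control 1, 2 or 3 and without anti-Ly6G 2, at adjusted p up to 0.133 (without control 2, limma), while the log2 difference stayed between 0.72 and 0.81. With the C57-labelled pools alone it was 0.83 (adjusted p = 0.0632, limma). The call was also lost with the replicate number as a block (adjusted p = 0.0585), a pseudocount of 0.1 (adjusted p = 0.0570) and the mitochondria label as covariate (0.83, adjusted p = 0.0933, limma).

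Cyp2j9 fell in the KO pools by 0.86 on the log2 scale (SE 0.16, adjusted p = 0.0323, limma), from 12.9 ± 1.73 to 6.91 ± 1.17 RPM. The highest KO pool, 8.49 RPM, was under the lowest control pool, 10.4. The call was lost without KO 1, KO 2, KO 4 or control 1, 2 or 3, at adjusted p up to 0.0952 (without control 2, limma), with log2 differences of -0.95 to -0.77 over the fits that leave out a pool. With the C57-labelled pools alone the difference was -0.97 (adjusted p = 0.0342, limma).

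The 5 Cyp3a genes were all lower in KO than in control, with log2 differences of -0.92 to -0.49, but only Cyp3a25 was called. Cyp3a25 (ENSMUSG00000029630, chr5:145977194-146009618) measured 971, 867, 818 and 705 RPM in control pools, 646, 534, 486 and 571 in the KO pools and 798, 723, 544 and 653 in anti-Ly6G pools. The KO pools lay below all control pools, at a log2 difference of -0.59 ± 0.13 (adjusted p = 0.0459, limma). Cyp3a59, with which it shares 48.05% of its 25-base words, went from 46.8 ± 10.4 to 33.0 ± 5.36 RPM (-0.49, adjusted p = 0.112, limma). The summed signal of both was 742 to 1032 RPM in control and 518 to 686 in KO pools, without overlap. The call of Cyp3a25 was lost without any KO pool, without control 1, 2 or 3 and without anti-Ly6G 2, at adjusted p up to 0.130 (without KO 3, limma), and with the C57-labelled pools alone (-0.51, adjusted p = 0.115, limma). It was also lost with the mitochondria label as covariate.

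Cyp3a11, the most abundant gene of the family, measured 2245, 2918, 2552 and 2334 RPM in control pools, 1592, 1468, 2228 and 1815 in the KO pools and 2677, 3115, 2347 and 2221 in anti-Ly6G pools. Its KO pools lay below all control pools, but the difference was not called over all 12 pools (-0.51 ± 0.14, adjusted p = 0.0917, limma). With the C57-labelled pools alone it was -0.71 (adjusted p = 0.0434, limma). Cyp3a13 went from 164 ± 42.1 to 110.5 ± 25.6 RPM (-0.56, adjusted p = 0.137, limma). Cyp3a44, a gene higher in female liver, gave the widest interval of the subfamily, -2.26 to 0.43, with values of 27.8 RPM in control 2 and 4.10 to 7.66 in the other control pools.

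**Figure D5:**
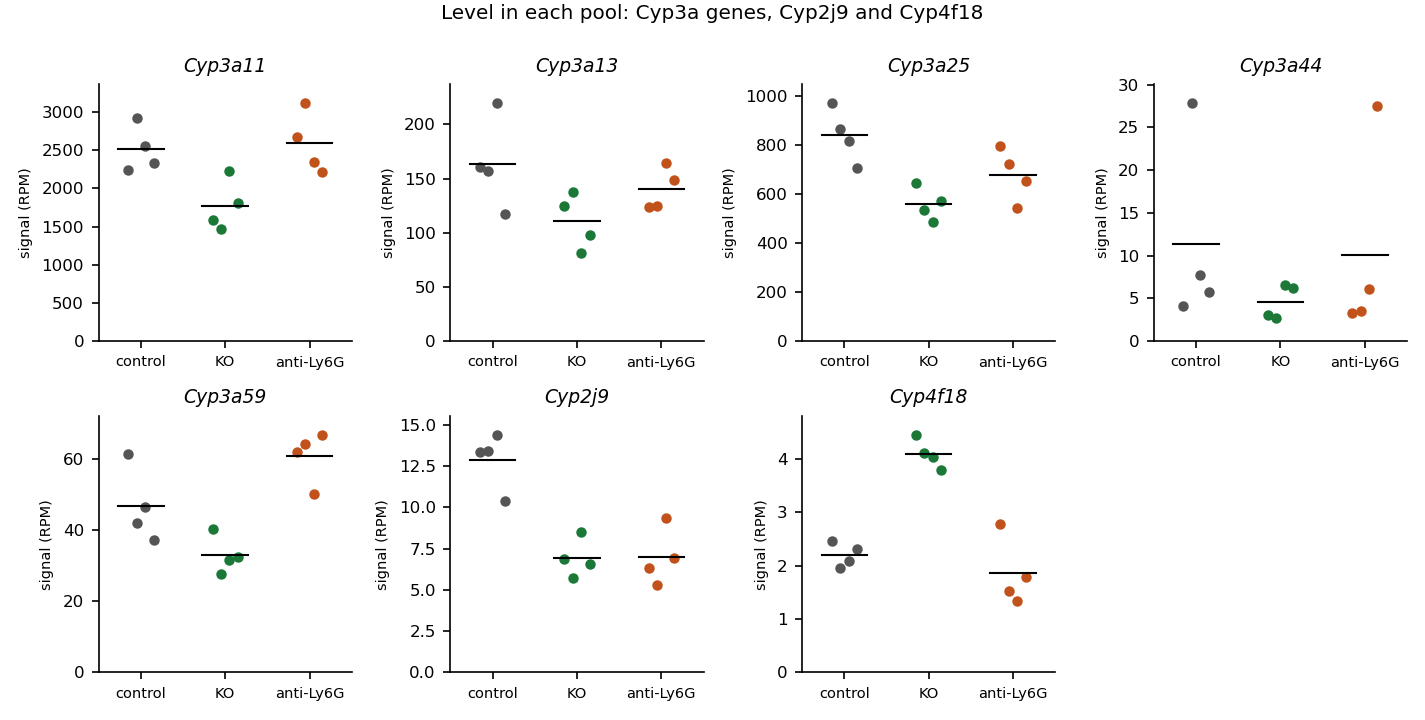
Signal in each pool (dots, RPM, axes from 0) with the group mean (line) for the 5 Cyp3a genes, Cyp2j9 and Cyp4f18. The KO pools lie below all control pools for Cyp3a11, Cyp3a25 and Cyp2j9 and above them for Cyp4f18, while Cyp3a44 has 1 high pool each in control and anti-Ly6G.

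No other subfamily held a call in KO against control. The 11 Cyp2c members ran from -0.46 to 0.26 on the log2 scale, the 5 Cyp2d members from -0.35 to -0.11 and the 4 Cyp4a members from -0.33 to 0.05. Cyp2a4 and Cyp2a5 differed by -1.10 and -0.79, with intervals of -2.15 to -0.04 and -1.54 to -0.03, and were not called (adjusted p = 0.247 and 0.248, limma). Among the P450 partners none of 17 was called, with Por at -0.40 (adjusted p = 0.199, limma) although its 4 KO pools lay below all control pools. Of 25 regulators Tef, a clock-output factor known to drive P450 genes in mouse liver, fell by 0.84 on the log2 scale (adjusted p = 0.0292, limma). Nr1i3 (-0.25), Nr1i2 (-0.34), Ppara (-0.30) and Ahr (0.44) were not called. Of the 21 CAR and PXR genes Aldh1a7 rose (0.58, adjusted p = 0.0115, limma), and none of the 7 AhR, 23 PPARα, 14 pericentral or 14 periportal genes was called.

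The KO pools differed among themselves along the mitochondria label, which also splits them by pool number. The signal summed over all genes split alike, at 1.00 and 0.993 M in KO 1 and 2 and 0.926 and 0.922 M in KO 3 and 4. These cannot be told apart. In 27 of 48 members (56.2%) both NZB-labelled KO pools (3 and 4) lay below both C57-labelled ones (1 and 2), and in 9 above, so that the pairs did not overlap in 75% of the members. Of all genes 26.9% lay below and 53.9% did not overlap. With 2 pools a side, pairs often do not overlap by chance alone, and no test was made. Cyp2a5 measured 362 and 293 RPM in KO 1 and 2 and 157 and 139 in KO 3 and 4. Cyp2c50 measured 384 and 481 against 177 and 266, and Cyp2b9 111 and 121 against 59.1 and 51.4. The means of the NZB-labelled pools were 0.453 times those of the C57-labelled pools for Cyp2a5, 0.511 times for Cyp2c50 and 0.477 times for Cyp2b9. The lowest ratio was that of Cyp2c54, 0.422, and the highest that of Cyp2a4, 2.64. For Cyp2a4 the C57-labelled pools ran from 5.54 to 13.99 RPM and the NZB-labelled ones from 14.35 to 37.2, so the pairs nearly touch. Reads may be shared between Cyp2a4 and Cyp2a5, which moved in opposite directions here.

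KO and anti-Ly6G pools were compared directly as well. Of 48 members 10 were higher and 8 lower in KO (37.5%), against 26.8% of all genes (1608 higher and 1549 lower, or 2333 and 701 with plain library totals, which called 11 and 7 members). In 5 members (10.4%) the difference was called and at least 2-fold, against 3.34% of all genes. Cyp2c39 was lower by 6.36 on the log2 scale (adjusted p = 2.00e-11), Cyp2a4 by 3.76 (adjusted p = 1.99e-04) and Cyp2b10 by 3.06 (adjusted p = 2.71e-05, limma) in KO. Cyp2c50 (1.29), Cyp2c37 (1.18), Cyp4f18 (1.00, adjusted p = 0.00109) and Cyp1b1 (0.93, adjusted p = 0.00420, limma) were higher in KO. In family 3, Cyp3a11 was lower in KO by 0.55 (adjusted p = 0.0127, limma) and Cyp3a59 by 0.88 (adjusted p = 0.00108, limma) on the log2 scale. Cyp2j9 did not differ detectably, at a log2 difference of 0.00 with an interval of -0.35 to 0.35. With the NZB-labelled pools alone, KO 3 and 4 against the 4 antibody pools, Cyp2c39 differed by -6.30 (adjusted p = 5.17e-09), Cyp2a4 by -3.09 (adjusted p = 0.00777), Cyp2b10 by -2.75 (adjusted p = 0.00346), Cyp2c37 by 0.81 (adjusted p = 0.02) and Cyp4f18 by 0.94 (adjusted p = 0.0417, limma), and Cyp2c50 was no longer called (0.79, adjusted p = 0.179, limma). This fit assumes that the 2 KO pools vary as the antibody pools do. It kept 13 of the 18 calls, and Cyp3a11 was among those lost. With the mitochondria label as covariate, Cyp3a11 and Cyp2c50 were not called either.

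Members outside the calls above showed no called difference from control in either group. Among them are Cyp1a2, which oxidises caffeine and aromatic amines (171 ± 24.99, 164 ± 13.9 and 190.0 ± 53.4 RPM for control, KO and anti-Ly6G pools), Cyp2r1, a vitamin D hydroxylase (4.19 ± 0.574, 4.21 ± 0.312 and 5.57 ± 1.47), Cyp2u1, a fatty acid hydroxylase (3.98 ± 0.788, 3.93 ± 0.647 and 4.94 ± 0.990), and Cyp2c70, which makes muricholic acids in mouse liver (71.0 ± 19.0, 62.7 ± 8.92 and 64.5 ± 8.23). Cyp2c29 came closest to the threshold in the antibody pools, at -0.53 ± 0.19 (adjusted p = 0.0525, limma), with 255 ± 61.6 RPM in control and 175 ± 40.5 in anti-Ly6G pools. In all, 30 of the 48 members were not called in anti-Ly6G and 45 not in KO against control, which at 4 pools a group does not show that their levels were equal.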

How the data were processed

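RNA-seq libraries of 12 liver pools were used. Per the submitters' processing notes, cutadapt 1.2.1, Bowtie2 2.0.6, RSEM 1.2.3, edgeR and build GRCm38 were used, with no order given; the sources used here do not give how reads that match several copies were split. The deposited signal is whole reads per M reads of a TMM-scaled library: 100% of values lay within 0.01 of a multiple of 1 read. A stricter check on low values was met by 4 columns but could not be made in 8, where low values were scarce, so that read numbers there, used by the count tests and for depth, are less certain. Total reads were 14.4 to 19.9 M in control, 18.8 to 22.3 in KO and 13.1 to 21.0 in anti-Ly6G pools.

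All 12 pools were fitted with group as the only factor by limma-trend (limma 3.58.1, R 4.3.3) on log2(signal + 0.5), for genes with a mean of at least 1 in a group, which removed 0 of 11791. Benjamini-Hochberg adjusted p under 0.05 was called. A count test had been planned; since the values are not counts, edgeR 4.0.16 and DESeq2 1.42.0 on the recovered reads were alternatives, besides pseudocounts of 0.1 and 1, a minimum mean of 5, plain totals, a replicate block, the mitochondria label, and each pool left out. Fits were tested on simulated data. Levels per kb used transcript lengths of GENCODE vM21, in which 11665 table genes were found; promoters are RefSeq's. All 48 members were described, each named by its symbol, and per-pool values were given for called members and the most abundant. The members and lists were chosen with earlier results of these data known.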

Additional observations from a re-analysis of the deposited data

Results flagged for a closer look

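In 8 of 144 groups of 4 pools (48 members in 3 groups), 1 pool stood apart from the other 3 by Dixon's test at the 95% level, and chance flags about 1 in 20 groups. Cyp3a44 was 27.8 RPM in control 2, against 4.10 to 7.66 in the other control pools. It was 27.6 RPM in anti-Ly6G 4, against 3.22 to 6.06. Cyp2a5 was 545 RPM in control 4, against 323 to 347. Cyp2c39 was 507 RPM in anti-Ly6G 3, against 412 to 422 in the other antibody pools. Cyp2c70 was 99.5 RPM in control 1, against 59.7 to 63.2. Cyp2d10 was 384 RPM in control 4, against 445 to 452. Cyp4b1 was 11.2 RPM in control 2, against 12.9 to 13.3. Cyp2f2 was 749.9 RPM in anti-Ly6G 4, against 588 to 608.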

How the results depend on the processing

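In KO against control the member that rose (1, Cyp4f18) was not called (0) with a pseudocount of 0.1, the replicate block, the mitochondria label as covariate or the C57-labelled pools alone, a minimum mean of 5 removed it before the test (0), and the 2 that fell became 4 with DESeq2 and 1 with the covariate. In anti-Ly6G against control the 12 that fell became 4 with the covariate, and over all genes the 1805 lower became 456. In KO against anti-Ly6G the 10 higher became 6 with the NZB-labelled pools alone, and the 8 lower became 14 with the covariate. Leaving out 1 pool gave 0 to 1 higher and 0 to 2 lower in KO against control, 4 to 9 and 8 to 12 in anti-Ly6G against control, and 8 to 10 and 6 to 12 in KO against anti-Ly6G. Over all genes, KO against control gave 268 higher and 309 lower with DESeq2, 10 and 10 with the replicate block, 25 and 54 with the covariate, and 2 and 1 without control 2, against 69 and 63.

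No called member changed direction (0 of 797 values over all members called, comparisons and alternatives). These fits reuse the same pools, and leaving out a pool of the group not compared leaves the log2 difference unchanged. The count is therefore no independent check. Among the named members that were not called some changed direction. Cyp4a10 in KO against control (0.05) became -0.037 with the covariate and with the C57-labelled pools alone, -0.079 without control 2 and -0.076 without control 4 (leaving out 1 pool gave -0.079 to 0.24). Cyp2d26 there (-0.14) became 0.037 with the covariate and with the C57-labelled pools alone. In anti-Ly6G against control Cyp3a11 (0.04) became -0.0053 with plain totals, -0.36 with the covariate, -0.0127 without control 1 and -0.054 without anti-Ly6G 2 (-0.054 to 0.11 over pools left out), and Cyp2d26 (0.10) became -0.0256 without anti-Ly6G 4 (-0.0256 to 0.17). The cause was not tested.

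Deviations of same-numbered pools from their group means correlated at 0.011 to 0.129 in KO against control. The range was -0.108 to 0.019 in anti-Ly6G against control and -0.209 to 0.172 in KO against anti-Ly6G. Correlations this low do not show that the numbers pair the pools, and they cannot exclude it. The replicate block gave 0 members higher and 2 lower in KO against control, 7 and 13 in anti-Ly6G against control, and 10 and 9 in KO against anti-Ly6G; a pool correlated best with its own number in 5, 1 and 2 of 8 pools. The block ended the calls of Cyp4f18 in KO against control and of Cyp1b1 in anti-Ly6G against control and no other call. The lowest member and pool had 10 reads.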
